A study of Mus musculus with 8 samples.

Results

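Genes of matricellular and TGF-beta induced proteins were followed across 8 arrays of mouse embryonic fibroblasts, cultured cells of embryonic connective tissue. The genes were chosen by name: Thbs1, Thbs2, Postn, Tnc, Sparc, Ccn1 (formerly Cyr61), Ccn2 (formerly Ctgf), Tgfbi and Pmepa1. Each of these 9 genes was found as exactly 1 transcript cluster with that symbol alone, among 17501 genes that had such clusters. The arrays were 4 of wild-type cells and 4 of Smurf2-/- cells, which lack the ubiquitin ligase gene Smurf2. Each genotype was studied in C57B6 mice and in a cross-bred stock, mixed BL, that combines 129SVJ with NIH Black Swiss. Early arrays were of passage 7 for C57B6 and 6 for mixed BL, and late arrays of passage 28 for C57B6 and 33 for mixed BL. Every combination of genotype, background and passage class had 1 array, and no treatment was named. Per the labels, the C57B6 cells came from 1 embryo per genotype, and in mixed BL 3 embryos were pooled for Smurf2-/- and 2 for wild-type cells. The sample descriptions and the growth protocol give different embryonic days. The labels do not say whether the early and the late array of a combination came from 1 culture. With 1 array per combination, no spread between like arrays could be measured. The SEs and p-values therefore rest on what the fitted model left over. That remainder holds departures from the model's terms as well as noise, and the noise may be partly or wholly technical.

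Matricellular proteins are secreted into the extracellular matrix, where they modulate the contact between cells and matrix more than they bear load. Thrombospondins, tenascin C, periostin, SPARC and the CCN proteins bind integrins, collagens or growth factors, and many of their genes are induced by TGF-beta through Smad2 and Smad3, in fibroblasts often together with the YAP and TEAD factors and the serum response factor. Smurf2, a HECT-type ligase related to NEDD4, ubiquitinates Smads and the TGF-beta receptor complex. The group name holds for 8 of the 9 genes; Pmepa1 is TGF-beta induced but encodes a transmembrane protein that binds NEDD4 family ligases and dampens Smad signalling.

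Each value below is a log2 signal centred by the authors on the middle of its cluster's 8 values before deposit, so a value of 0 is a gene's own middle level and levels of different genes cannot be compared. The numerical step of the values was that of log2 numbers from 8 to 16 in 7 of the 9 genes, a step found in 22.2% of all clusters, and that of numbers from 4 to 8 in Thbs2 and Postn. How near the lowest values of Thbs2 and Postn lay to the floor of the arrays was not tested, which limits their fold sizes. The array medians over all genes lay between -0.01 and 0.05. Smurf2 itself differed between the genotypes by -1.57 ± 0.12 (SE, n = 4 against 4; limma adjusted p = 0.0484), lower in all 4 matched pairs. The size was -1.69 to -1.47 under every alternative, but the call held only with a trend, and the adjusted p was otherwise 0.0517 to 0.578. A trend has no mean level to follow in centred values, so that setting is weak support. Xist, which drives X inactivation, differed by -4.36 ± 0.33 (SE) and the Y-linked genes Uty, Kdm5d and Eif2s3y by 2.35, 2.27 and 3.50, so the sex of the embryos moved with genotype and cannot be told apart from it in any genotype difference here. Because centring removes the level, the labelled cell type could not be checked by the presence or absence of markers. In such bulk RNA, fewer cells of a kind and less RNA per cell cannot be told apart.

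Late-passage Smurf2-/- cells had the lowest levels of most of these genes. In 6 of the 9 genes (Thbs1, Tnc, Sparc, Ccn1, Ccn2 and Pmepa1) both late Smurf2-/- arrays were the lowest 2 of the 8, against 8.13% of all 17501 genes. With the late C57B6 Smurf2-/- array left out, the remaining late Smurf2-/- array was the lowest of 7 in the same 6 genes, against 20.7% of all genes. With the late mixed BL one left out it was the lowest in these 6 and Postn, against 16.4%. For the 6 genes both outcomes follow from the rule itself, so they are no further check on it. At late passage 7 of 9 genes were lower in Smurf2-/- than in wild-type cells of both backgrounds (22.9% of all genes), and at early passage 0 of 9 (26% of all genes). This pattern was chosen as a rule after the values were seen. No gene of the 9 passed the limma threshold of an adjusted p under 0.05 in any comparison, where 5 of all genes (0.0286%) passed for genotype, 3 (0.0171%) for passage, 14 (0.08%) for background and 1 (0.00571%) for genotype at early passage. The 5 for genotype were Smurf2 itself, Xist and the Y-linked genes Uty, Kdm5d and Eif2s3y. The 1 for genotype at early passage was Uty. Over all genes limma called 0 for genotype at late passage, for passage within Smurf2-/- cells and for passage within wild-type cells, where 2339, 2585 and 1268 genes had an unadjusted p under 0.05.

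**Figure D1:**
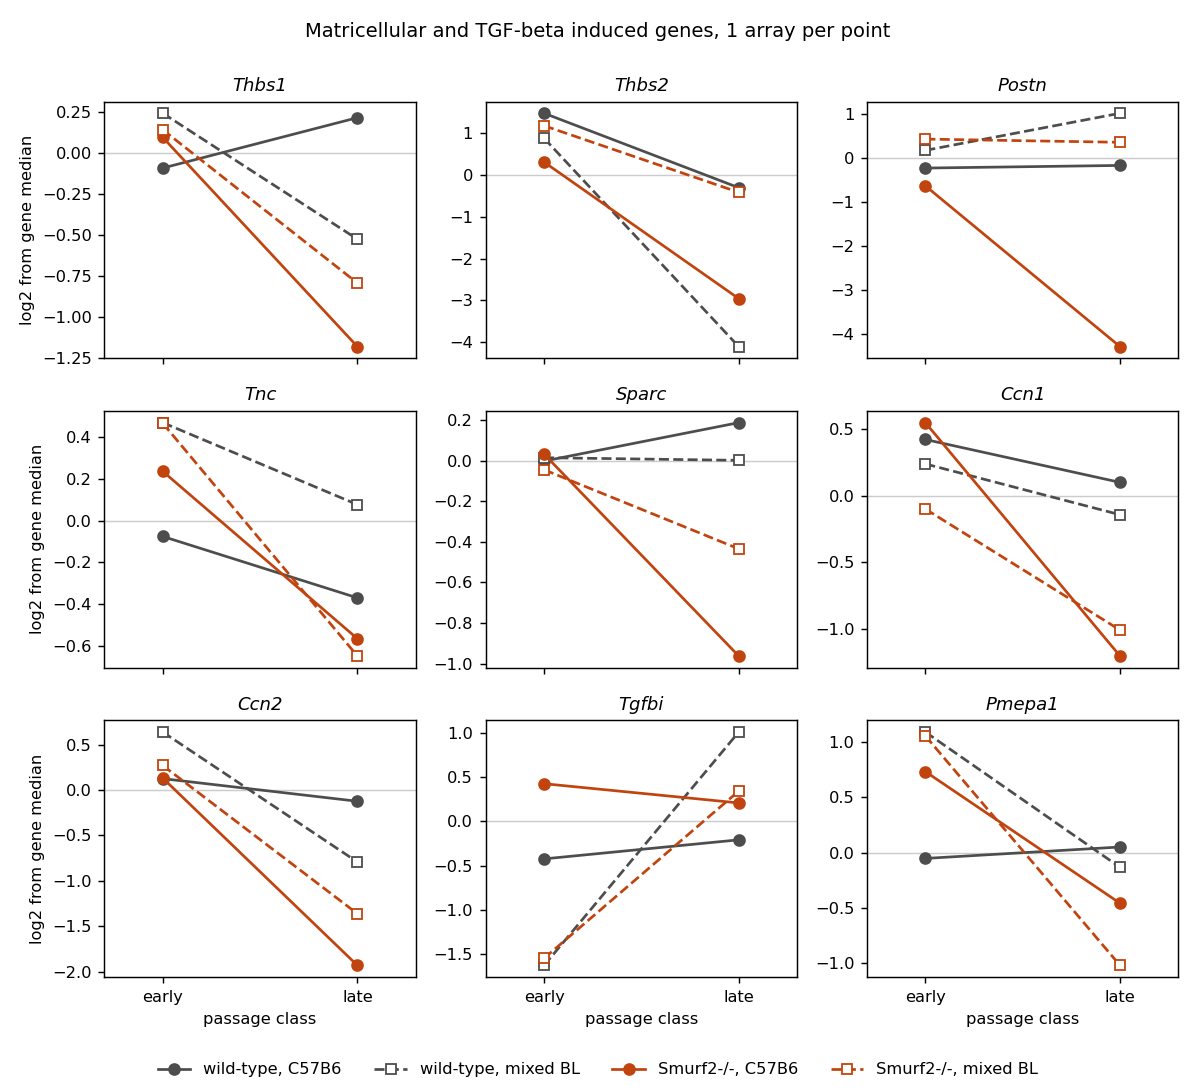
Log2 value of each gene, centred on its median over the 8 arrays, at early and late passage; each point is 1 array, grey is wild-type and orange Smurf2-/-, and filled circles with solid lines are C57B6, open squares with dashed lines mixed BL. Lines join arrays of the same genotype and background, which are not known to be 1 culture; the vertical scale differs between panels. In Ccn2 the late Smurf2-/- arrays lie at -1.93 and -1.36, below the other 6.

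Ccn2, or connective tissue growth factor, is a CCN protein and a standard readout of TGF-beta and YAP activity. Its early values were 0.12 and 0.13 in C57B6 (wild-type, then Smurf2-/-) and 0.64 and 0.27 in mixed BL (same order). Its late values were -0.12 and -1.93 in C57B6 (wild-type, then Smurf2-/-) and -0.79 and -1.36 in mixed BL (same order). The 4 late arrays lay below all 4 early arrays, and within late passage each Smurf2-/- array lay below both wild-type arrays. Late minus early was -1.34 ± 0.29 (SE, n = 4 against 4; 2.54-fold lower, limma adjusted p = 0.137), lower in 4 of 4 pairs. An exact permutation test, two-sided, returned p = 0.0286, the lowest value possible with 4 against 4, which became 0.257 when adjusted over the 27 tests of 9 genes in 3 comparisons. The test shuffled the arrays freely and did not hold the matched pairs. The genotypes differed by -1.19 ± 0.32 (SE) at late passage and by -0.18 ± 0.32 (SE) at early passage, with limma adjusted p of 0.242 and 0.9999. Without the late C57B6 wild-type array the late difference was -0.65, and without the late mixed BL wild-type array -1.72.

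Ccn1, the CCN protein CYR61, is an immediate early serum and YAP target that binds integrins. At early passage it stood at 0.42 and 0.55 in C57B6 (wild-type, then Smurf2-/-) and at 0.24 and -0.10 in mixed BL (same order). At late passage it stood at 0.10 and -1.20 in C57B6 (wild-type, then Smurf2-/-) and at -0.14 and -1.01 in mixed BL (same order). The late Smurf2-/- arrays were set well below the other 6, which ranged from -0.14 to 0.55 and overlapped between early and late. The genotype difference at late passage was -1.08 ± 0.21 (SE, 2.12-fold lower, limma adjusted p = 0.156), the smallest p of the 9 genes in that comparison, and at early passage -0.11 ± 0.21 (SE). The difference of these differences, the genotype by passage interaction, was -0.98 ± 0.29 (SE, limma adjusted p = 0.822). Late and early Smurf2-/- arrays differed by -1.33 ± 0.21 (SE, limma adjusted p = 0.117) and late and early wild-type arrays by -0.35 ± 0.21 (SE).

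Thbs1 encodes thrombospondin 1, which inhibits angiogenesis and can activate latent TGF-beta. Its early values were -0.09 and 0.09 in C57B6 (wild-type, then Smurf2-/-) and 0.24 and 0.14 in mixed BL (same order). At late passage the values were 0.21 and -1.18 in C57B6 (wild-type, then Smurf2-/-) and -0.53 and -0.79 in mixed BL (same order). The late wild-type C57B6 array was among the high ones, and the other 3 late arrays were below every early array. Late minus early was -0.67 ± 0.26 (SE, limma adjusted p = 0.282), lower in 3 of 4 pairs, and the genotype difference at late passage was -0.83 ± 0.30 (SE, limma adjusted p = 0.339). In C57B6 the late pair differed by -1.40 and in mixed BL by -0.27; without the late C57B6 wild-type array the fitted late difference was -0.33.

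Sparc, the collagen-binding protein osteonectin, was flat outside the late Smurf2-/- arrays. The 4 early arrays lay between -0.04 and 0.03, and the late wild-type arrays at 0.19 in C57B6 and 0.00 in mixed BL. The late Smurf2-/- arrays lay at -0.96 in C57B6 and -0.43 in mixed BL, below all others. The genotype difference at late passage was -0.79 ± 0.19 (SE, 1.73-fold lower, limma adjusted p = 0.208) and at early passage -0.01 ± 0.19 (SE). Without the late C57B6 Smurf2-/- array the late difference was -0.49.

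Tnc encodes tenascin C, a large oligomeric glycoprotein of healing and remodelling matrix. It stood at -0.08 and 0.23 in early C57B6 (wild-type, then Smurf2-/-) and at 0.47 and 0.46 in early mixed BL (same order). Late values were -0.37 and -0.56 in C57B6 (wild-type, then Smurf2-/-) and 0.08 and -0.65 in mixed BL (same order). All 4 passage pairs were lower at late passage, although the late wild-type mixed BL array lay within the early range. Late minus early was -0.65 ± 0.17 (SE, limma adjusted p = 0.166), and -0.96 ± 0.17 (SE, limma adjusted p = 0.136) in Smurf2-/- against -0.34 ± 0.17 (SE) in wild-type cells. The genotype difference at late passage, -0.46 ± 0.17 (SE, limma adjusted p = 0.359), rested mainly on mixed BL, where the pair differed by -0.72 against -0.19 in C57B6, and was -0.21 when late mixed BL Smurf2-/- was left out.

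Pmepa1 had its lowest values in late Smurf2-/- arrays and its highest in early mixed BL. Early arrays read -0.05 and 0.73 in C57B6 (wild-type, then Smurf2-/-) and 1.09 and 1.06 in mixed BL (same order). Late arrays read 0.05 and -0.46 in C57B6 (wild-type, then Smurf2-/-) and -0.13 and -1.02 in mixed BL (same order). Late minus early was -1.10 ± 0.35 (SE, 2.14-fold lower, limma adjusted p = 0.215), lower in 3 of 4 pairs and 0.10 higher in wild-type C57B6. The genotype difference at late passage was -0.70 ± 0.41 (SE, limma adjusted p = 0.569), and -0.20 when late mixed BL Smurf2-/- was left out.

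The upstream sequences of Ccn1, Tnc and Sparc are shown because these genes had their lowest values in the late Smurf2-/- arrays and had a RefSeq start in the promoter table. They are the 250 bases before a start, 5′ to 3′, from RefSeq on build GRCm38.p6. Ccn1 lies on the minus strand at chr3:145649986-145650235, Tnc, by 1 of its 2 listed starts, on the minus strand at chr4:64046937-64047186, and Sparc on the minus strand at chr11:55420081-55420330. Capitals mark matches, on either strand, to the Smad core site CAGAC, the TEAD motif GGAATG, the AP-1 motif TGANTCA and the TATA box TATAAA.
Ccn1: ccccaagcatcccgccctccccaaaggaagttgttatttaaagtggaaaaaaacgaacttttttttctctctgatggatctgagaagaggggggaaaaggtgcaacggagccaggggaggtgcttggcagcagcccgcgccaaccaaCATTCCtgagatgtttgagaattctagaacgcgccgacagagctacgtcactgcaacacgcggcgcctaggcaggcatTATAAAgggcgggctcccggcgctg
Tnc: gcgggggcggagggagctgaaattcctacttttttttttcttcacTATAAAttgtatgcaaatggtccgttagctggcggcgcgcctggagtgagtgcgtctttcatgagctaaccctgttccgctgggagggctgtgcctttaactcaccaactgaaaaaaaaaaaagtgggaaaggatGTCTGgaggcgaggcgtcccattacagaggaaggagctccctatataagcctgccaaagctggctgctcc
Sparc: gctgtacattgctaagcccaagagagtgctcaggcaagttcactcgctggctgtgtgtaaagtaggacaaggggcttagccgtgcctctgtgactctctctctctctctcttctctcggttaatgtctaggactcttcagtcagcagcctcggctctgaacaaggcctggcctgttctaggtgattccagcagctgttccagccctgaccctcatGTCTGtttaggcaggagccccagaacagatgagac
The Ccn1 window held 1 TEAD motif, from -103 to -98, and 1 TATA box, from -25 to -20, counted back from the start. The Tnc window held 1 Smad core site, from -70 to -66, and a TATA box letter match from -205 to -200, too far from the start for the usual place of such a box. Only the exact letters TATAAA were searched, so the stretch tatataa near the end of the Tnc window is not marked. The window of the other Tnc start, chr4:64047016-64047265, held 0 Smad core sites and the TATA letters from -126 to -121. The Sparc window held 1 Smad core site, from -35 to -31. Of 32851 RefSeq windows of this length, 42.2% held the Smad core site, 12.6% the TEAD motif, 12.4% the TATA letters, 6.75% the AP-1 motif and 1.47% a serum response element. A match is a stretch of letters and not a shown binding site.

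The genotypes were also compared over both passage classes together. Smurf2-/- minus wild-type was -0.59 ± 0.24 (SE, n = 4 against 4) for Ccn1, -0.68 ± 0.29 for Ccn2, -0.40 ± 0.20 for Sparc, -0.39 ± 0.26 for Thbs1 and -1.23 ± 0.83 for Postn, with limma adjusted p between 0.651 and 0.716. Leaving out the late C57B6 Smurf2-/- array brought the difference to -0.37 in Ccn1, -0.19 in Sparc and -0.24 in Postn. Leaving out the late C57B6 wild-type array brought it to -0.36 in Ccn2 and -0.10 in Thbs1. Tnc, Pmepa1, Thbs2 and Tgfbi differed by -0.15 ± 0.17, -0.16 ± 0.35, 0.04 ± 0.98 and 0.17 ± 0.52 (SE). In no gene did the 4 Smurf2-/- arrays separate from the 4 wild-type arrays, whereas 1.02% of all genes separated downwards and 1.14% upwards. Ccn1 was the only one of the 9 lower at an unadjusted limma p under 0.05, against 4.42% of all genes.

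At late passage 5 of the 9 genes (Thbs1, Tnc, Sparc, Ccn1 and Ccn2) were lower in Smurf2-/- cells at an unadjusted limma p under 0.05, against 6.97% of all genes, and at early passage 0, against 0.703%. The median difference over the 9 genes was -0.79 at late passage, where the median over all genes was 0.02, and -0.01 at early passage. In the late C57B6 pair 6 of 9 genes were at least 1 log2 unit lower in the Smurf2-/- array (3.43% of all genes), and in the late mixed BL pair 0 (2.49%). In the early pairs the counts were 1 in C57B6, Thbs2 (1.07%), and 0 in mixed BL (0.429%). At least 1 log2 unit higher in the Smurf2-/- array were 0 genes in the early (0.503%) and late (2.1%) C57B6 pairs and in the early mixed BL pair (0.171%), and 1, Thbs2, in the late mixed BL pair (2.15%). The pairs are 1 array against 1 and carry no error of their own. For the interaction of genotype with passage, 8 of 9 values were negative (45.9% of all genes) with a median of -0.87 (0.02 over all genes), 2 of them (Sparc and Ccn1) at an unadjusted limma p under 0.05 against 2.5% of all genes, and 0 passed adjustment; over all genes limma also called 0 (0%), with 937 at an unadjusted p under 0.05.

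**Figure D2:**
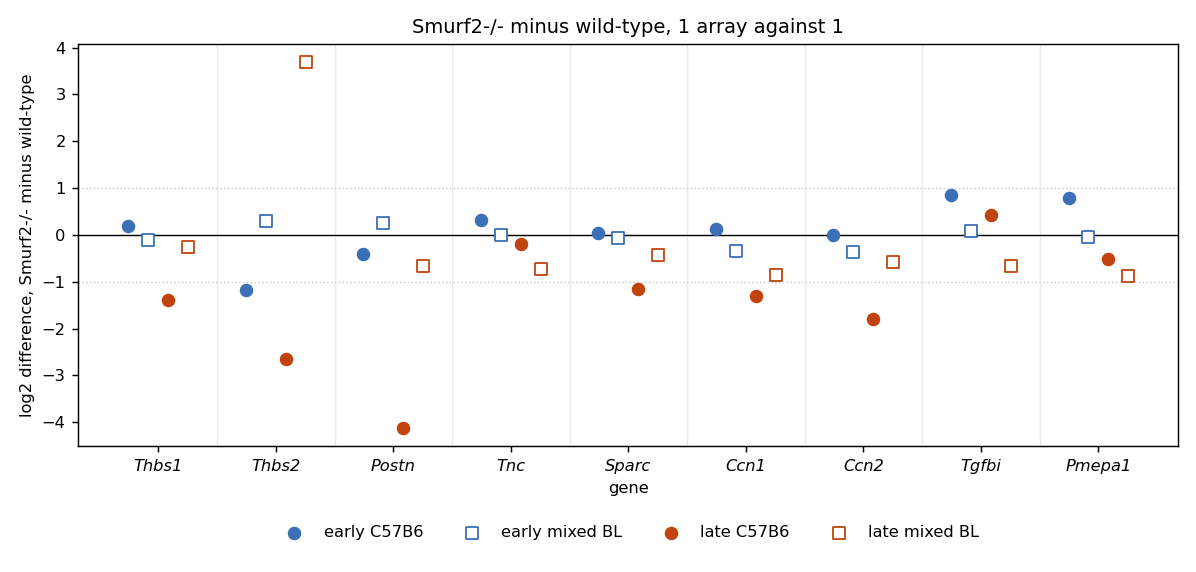
Log2 difference of Smurf2-/- minus wild-type in each matched pair of arrays, for each gene on the horizontal axis; blue marks are early and orange marks late pairs, filled circles C57B6 and open squares mixed BL, and dotted lines mark 1 log2 unit. The late pairs lie below 0 in 7 genes, Thbs2 has a late mixed BL pair at 3.69, and Postn a late C57B6 pair at -4.12.

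Late passage was compared with early passage in both genotypes. Late values were lower on average in 8 of 9 genes, with a median of -0.71 against 0.03 over all genes, and 6 (Thbs1, Thbs2, Tnc, Ccn1, Ccn2 and Pmepa1) were lower at an unadjusted limma p under 0.05, against 10.3% of all genes. Thbs2, Tnc, Ccn1 and Ccn2 were lower in all 4 pairs (11.9% of all genes), and in Thbs2 and Ccn2 the late arrays did not overlap the early ones (4.59% of all genes); no gene of the 9 had all late arrays above all early ones (5.44%). Within Smurf2-/- cells the median difference was -1.33 and 6 genes (Thbs1, Tnc, Sparc, Ccn1, Ccn2 and Pmepa1) were lower at an unadjusted limma p under 0.05 (8.71% of all genes). Within wild-type cells the median was -0.34 and Ccn2 alone was lower at that level (4.89% of all genes), by -0.84 ± 0.32 (SE). Genes at least 1 log2 unit lower at late passage numbered 6 in Smurf2-/- C57B6 (3.27% of all genes), 4 in Smurf2-/- mixed BL (3.23%), 3 in wild-type mixed BL (2.73%) and 1 in wild-type C57B6 (1.68%). The genotype and passage comparisons within late or within Smurf2-/- cells share the late Smurf2-/- arrays, so they are not separate evidence.

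**Figure D3:**
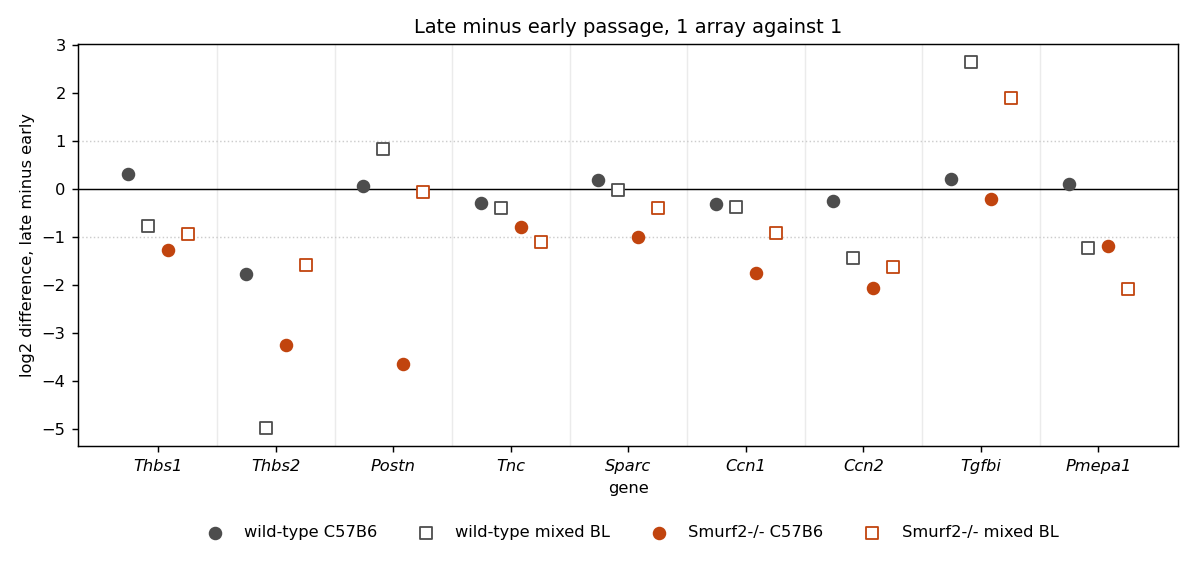
Log2 difference of late minus early passage for each gene in the 4 combinations of genotype and background, 1 array against 1; grey marks are wild-type and orange marks Smurf2-/-, filled circles C57B6 and open squares mixed BL, and dotted lines mark 1 log2 unit. Tgfbi lies at 2.64 and 1.89 in mixed BL and near 0 in C57B6, and Thbs2 reaches -4.98 in wild-type mixed BL.

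Thbs2 and Postn did not follow the shared pattern and had the widest ranges of the 9, 5.58 and 5.30 log2 units, with larger standard deviations over the arrays than 99.97% and 99.8% of all genes. Thbs2 encodes thrombospondin 2, an inhibitor of angiogenesis that also shapes collagen fibrils. Its early values were 1.47 and 0.31 in C57B6 (wild-type, then Smurf2-/-) and 0.88 and 1.17 in mixed BL (same order). Its late values were -0.31 and -2.96 in C57B6 (wild-type, then Smurf2-/-) and -4.10 and -0.42 in mixed BL (same order). Every late array was below every early one, but the very low arrays were of opposite genotype in the 2 backgrounds. Late minus early was -2.90 ± 0.98 (SE, 7.48-fold lower, limma adjusted p = 0.233), with a permutation p of 0.0286 (exact, two-sided, the smallest possible; 0.257 adjusted over the 27 tests). Leaving out late mixed BL wild-type gave -1.90, and leaving out late mixed BL Smurf2-/- gave -3.72. Smurf2-/- minus wild-type was -1.17 and -2.65 in the early and late C57B6 pairs and 0.30 and 3.69 in the early and late mixed BL pairs. The genotype by background interaction was 3.90 ± 1.23 (SE, limma adjusted p = 0.939), and 1.65% of all genes were higher at an unadjusted limma p under 0.05.

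Postn encodes periostin, a fasciclin domain protein that binds collagen and integrins and marks activated fibroblasts. In C57B6 it stood at -0.23 and -0.64 in early wild-type and Smurf2-/- arrays and at -0.17 and -4.29 in late wild-type and Smurf2-/- arrays. In mixed BL it stood at 0.17 and 0.43 in early wild-type and Smurf2-/- arrays and at 1.01 and 0.35 in late wild-type and Smurf2-/- arrays. A single array, late C57B6 Smurf2-/-, was 3.65 log2 units below the next lowest, and it was 17.4-fold below its wild-type partner. The passage difference of -0.71 ± 0.83 (SE, limma adjusted p = 0.674) became 0.29 without that array, and the late genotype difference of -2.39 ± 1.05 (SE, limma adjusted p = 0.426) became -0.51.

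Postn was also the only gene of the 9 whose backgrounds did not overlap. All 4 mixed BL arrays, from 0.17 to 1.01, lay above all 4 C57B6 arrays, which reached -0.17 at most, as in 3.02% of all genes; 2.89% were placed the other way. Mixed BL minus C57B6 was 1.82 ± 0.83 (SE, limma adjusted p = 0.418), higher in 4 of 4 pairs, with an exact two-sided permutation p of 0.0286, or 0.257 over the 27 tests. Without the late C57B6 Smurf2-/- array the difference was 0.83. For the other 8 genes the background differences lay between -0.46 and 0.28, with limma adjusted p of 0.552 or more, and no gene of the 9 had an unadjusted limma p under 0.05, against 13.5% of all genes. Passage numbers differ between the backgrounds, as does the pooling of embryos in mixed BL, so neither can be told apart from background.

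Tgfbi was the exception in direction. It encodes a secreted fasciclin domain protein, named for its induction by TGF-beta, that binds collagens and integrins. In C57B6 its values were -0.42 and 0.43 in early wild-type and Smurf2-/- arrays and -0.21 and 0.21 in late wild-type and Smurf2-/- arrays. In mixed BL they were -1.63 and -1.55 in early wild-type and Smurf2-/- arrays and 1.01 and 0.34 in late wild-type and Smurf2-/- arrays. The early mixed BL arrays of both genotypes were the lowest, and late mixed BL wild-type was the highest. Late minus early was 2.64 (6.25-fold higher) in wild-type and 1.89 (3.72-fold higher) in Smurf2-/- mixed BL, but 0.22 and -0.22 in wild-type and Smurf2-/- C57B6. Genes at least 1 log2 unit higher at late passage were 1.54% of all genes in wild-type and 1.38% in Smurf2-/- mixed BL, and Tgfbi was the only one of the 9 among them. In C57B6 none of the 9 was (0.663% of all genes in wild-type and 1.49% in Smurf2-/-). The passage by background interaction, a comparison added after the values were seen, was 2.27 ± 0.51 (SE, limma adjusted p = 0.364); 3.99% of all genes were higher at an unadjusted p under 0.05. Its genotype difference of 0.17 ± 0.52 (SE) changed sign without any 1 of 3 arrays and has no settled direction.

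The windows of Thbs2, Postn and Tgfbi are shown because these genes had the widest ranges. Thbs2 lies on the minus strand at chr17:14694263-14694512, Postn, by its downstream start, on the plus strand at chr3:54360857-54361106, and Tgfbi on the plus strand at chr13:56609336-56609585, all on GRCm38.p6 from RefSeq. Capitals mark the same motifs as above.
Thbs2: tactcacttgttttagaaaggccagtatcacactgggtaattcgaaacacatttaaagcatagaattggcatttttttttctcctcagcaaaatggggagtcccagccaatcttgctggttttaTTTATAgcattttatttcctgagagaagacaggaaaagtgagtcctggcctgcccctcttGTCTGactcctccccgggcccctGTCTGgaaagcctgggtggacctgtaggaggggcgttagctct
Postn: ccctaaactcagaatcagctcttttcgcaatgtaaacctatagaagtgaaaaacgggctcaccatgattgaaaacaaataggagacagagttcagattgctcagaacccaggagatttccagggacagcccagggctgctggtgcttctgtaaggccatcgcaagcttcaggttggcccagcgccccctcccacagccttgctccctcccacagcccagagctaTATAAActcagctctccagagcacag
Tgfbi: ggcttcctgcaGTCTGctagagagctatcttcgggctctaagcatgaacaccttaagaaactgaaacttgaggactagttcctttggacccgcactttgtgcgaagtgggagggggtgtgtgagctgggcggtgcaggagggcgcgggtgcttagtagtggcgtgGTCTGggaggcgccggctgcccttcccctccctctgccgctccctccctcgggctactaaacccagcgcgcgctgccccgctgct
The Thbs2 window held the TATA letters on the opposite strand from -126 to -121. Thbs2 and Tgfbi each held 2 Smad core sites, at -66 to -62 and -43 to -39 in Thbs2 and at -239 to -235 and -85 to -81 in Tgfbi, all read on the opposite strand. The Postn window held a TATA box from -26 to -21 and no Smad core site; the window of the upstream Postn start, chr3:54359017-54359266, held 1, from -191 to -187. None of the 6 windows held the AP-1 motif or a serum response element, which says only that these letters are not in these 250 bases.

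Other genes of the same families, listed by family but with earlier results of these data known, were mixed in direction, and some showed the late Smurf2-/- pattern. In 5 of 16 measured relatives (Ccn3, Ccn5, Smoc1, Smoc2 and Fstl1) both late Smurf2-/- arrays were the lowest 2 of the 8 (8.13% of all genes). Of the lists given further below, the same held in 6 of 23 TGF-beta pathway genes, Smurf2 among them, and 4 of 16 YAP and TEAD genes. It also held in 3 of 12 receptors, 2 of 6 smooth muscle type genes, 2 of 10 fibroblast genes and 0 of 15 cell cycle genes. The pattern was thus not particular to matricellular genes. At late passage 6 of the 16 relatives were lower in Smurf2-/- cells (6.97% of all genes) and 1 higher at an unadjusted limma p under 0.05. Within Smurf2-/- cells 5 of them were lower at late passage at that level (8.71% of all genes) and 1 higher. Over all passages, of 16 measured genes of a list of 18 further matricellular relatives, 9 were lower and 7 higher without Smurf2, with a median of -0.07 (44.5% of all genes were lower), and none passed the test. Late against early, 8 were lower (42.5% of all genes). Ccn5, a CCN protein without the C-terminal domain, was 1.48, 0.51, 0.58 and 0.57 in wild-type early and late C57B6 and early and late mixed BL, and -0.51, -1.98, -0.55 and -0.94 in the same Smurf2-/- arrays. The 4 Smurf2-/- arrays lay below all wild-type arrays, with a difference of -1.78 ± 0.30 (SE, limma adjusted p = 0.651). Ccn3 and Fstl1 differed by -0.41 ± 0.19 and -0.26 ± 0.12 (SE) for genotype, and Sparcl1 by 0.17 ± 0.08 (SE). At late against early passage Spock2 differed by 0.19 ± 0.07 and Ccn5 by -0.71 ± 0.30 (SE).

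Of 23 measured TGF-beta pathway genes of a list of 24, 18 were lower at late passage (42.5% of all genes), with a median of -0.22. Late minus early for Lrrc32, an anchor of latent TGF-beta on cell membranes, was -1.67 ± 0.12 (SE, limma adjusted p = 0.0463). It was also called with quantile normalisation, and with a trend, which has no mean level to follow in centred values. It was not called with robust variances (adjusted p = 0.0549), array weights, single clusters, all two-way interactions or any 1 array left out (0.0734 to 0.280). Among the others, Ltbp4, a latent TGF-beta binding protein, differed by 1.40 ± 0.19 (SE, limma adjusted p = 0.0906) and the inhibitory Smad gene Smad7 by -1.09 ± 0.35 (SE). For genotype 16 of 23 were lower (44.5% of all genes), with a median of -0.09, and Smurf2 was the only one to pass. Smad3, which carries the TGF-beta signal into the nucleus, differed by -0.54 ± 0.15, the inhibitory Smad6 by -0.62 ± 0.24 and Ltbp3 by -0.45 ± 0.19 (SE), with limma adjusted p of 0.651 for Smad3 and Smad6.

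Against the same shares of all genes, 13 of 16 YAP and TEAD genes were lower at late passage (median -0.28), among them Yap1 by -0.42 ± 0.06 (SE, limma adjusted p = 0.098), its kinase gene Lats2 by -0.66 ± 0.17, Tead1 by -0.32 ± 0.10 and Amotl1 by -0.38 ± 0.13 (SE). For genotype 10 of 16 were lower (median -0.11), while the targets Axl and Ankrd1 differed by 0.60 ± 0.22 and 0.81 ± 0.40 (SE). Other targets went the other way, with larger p: F3 differed by -0.74 ± 0.51 and Amotl2 by -0.43 ± 0.31 (SE). None of the 16 passed. Of 12 measured receptors of these proteins, from a list of 13, 10 were lower at late passage (median -0.45), including the integrin genes Itgb1 by -0.47 ± 0.12, Itgb5 by -0.63 ± 0.22 and Itgav by -0.72 ± 0.26 and the endocytic receptor gene Lrp1 by -0.60 ± 0.16 (SE), none past the test. For genotype 7 of 12 were lower (median -0.08), with the proteoglycan gene Sdc4 at -0.55 ± 0.24, Itgb5 at -0.47 ± 0.22, Lrp1 at -0.26 ± 0.16 and the thrombospondin receptor gene Cd47 at -0.33 ± 0.19 (SE).

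Genes of other programmes also stood apart in these arrays, none of them past the test. The median of 15 cell cycle genes was 1.09 and 0.56 in late Smurf2-/- cells (C57B6, then mixed BL) and between -0.26 and 0.03 in the other 6. The median of 6 smooth muscle type genes was -0.95 and -0.73 in the late Smurf2-/- arrays and between -0.42 and 0.29 in the others. The median of 10 fibroblast genes was -0.64 in the late C57B6 Smurf2-/- array and -0.34 in the late wild-type mixed BL array, and between -0.08 and 0.17 in the others. Single genes of this list varied more. Lum, Dcn and Pdgfra stood at 3.89, 2.435 and 1.47 in late mixed BL Smurf2-/- and at -0.47, -2.49 and -1.58 in late C57B6 Smurf2-/-. In late wild-type arrays they stood at -0.51, -2.09 and -1.37 in mixed BL and at -0.52, -2.17 and 0.10 in C57B6. Between the 2 late Smurf2-/- arrays mixed BL was lower in 1 of the 10 genes, with a median difference of 0.56. Pdgfrb was low in both late Smurf2-/- arrays, at -0.81 in mixed BL and -1.09 in C57B6, and at -0.84 in late wild-type mixed BL. Medians of the macrophage, endothelial, epithelial, skeletal muscle and neural markers stayed between -0.12 and 0.21 in all 8 arrays. The macrophage marker Lyz2 departed from its list: it stood at 3.20 and 2.07 in early mixed BL (wild-type, then Smurf2-/-), the arrays lowest in Tgfbi, and between -0.49 and 0.19 in the other 6. The other 5 macrophage markers lay between -0.74 and 0.87 throughout. The median of 5 cartilage and bone markers reached 1.64 in early wild-type C57B6. The part of growth rate, of Lyz2-expressing cells or of other cell makeup in the levels of the 9 genes was not tested.

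**Figure D4:**
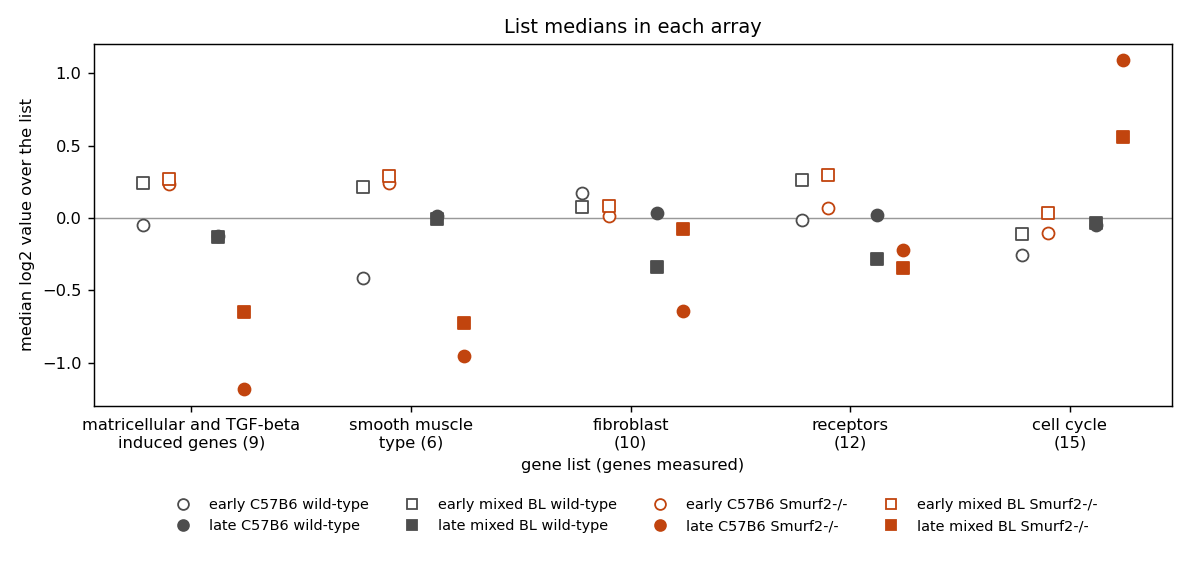
Median log2 value over each gene list in each of the 8 arrays, with the number of genes measured in brackets; grey is wild-type and orange Smurf2-/-, circles are C57B6, squares mixed BL, and filled marks late passage. In the late Smurf2-/- arrays the 9 genes have medians of -1.18 and -0.65, and the cell cycle genes 1.09 and 0.56.

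Within the 9 genes, profiles over the 8 arrays were most alike for Thbs1 and Ccn2 (Pearson r = 0.97), Tnc and Pmepa1 (r = 0.93) and Ccn1 and Ccn2 (r = 0.90). Tgfbi had a negative r with all others, from -0.71 with Thbs2 to -0.15 with Postn, and it was weak with Postn, Sparc (-0.245) and Ccn1 (-0.28). These are descriptions over 8 arrays that share genotype, background and passage. Among 1566 other genes with a standard deviation of at least 0.5, the profiles most like Ccn2 were those of Mospd2, Ctsf and Bcl2l2 (r of 0.98, 0.98 and 0.97). Those most like Thbs1 were Itgb5, Pdgfrb and Phldb2 (0.97, 0.96 and 0.95), and those most like Tnc were Dusp3, Myh11 and Tll1 (0.99, 0.98 and 0.96). Sparc was most like Fbln5, Col5a2 and Slc24a3 (0.96 each), and Postn most like Rgs4, Serpinf1 and Enpp4 (0.96, 0.96 and 0.92).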

How the data were processed

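RNA of 8 fibroblast samples was hybridised to Affymetrix arrays. The deposited values are log2 signals that the authors had centred per cluster, since every cluster's median is 0 (largest departure 5e-07). How arrays were normalised is not given in the sources, and builds mm8 and mm9 are named without a role, per the submitters' processing notes. Of 24169 clusters, 19134 had 1 gene symbol; they named 17501 genes, whose clusters were averaged. The number of arrays limits the precision.

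Genes were tested with limma 3.58.1 in R 4.3.3 without a trend, since centring leaves no mean level. Genotype, passage class and background entered as additive terms, with 4 residual degrees of freedom; contrasts within a passage class or genotype, and interactions, came from models with 1 interaction. Adjustment was by Benjamini-Hochberg over all genes, threshold 0.05. The number that ends each title is the passage class, which is in the model. Arrays matched by passage class and background deviated together to differing degrees (r from 0.11 to 0.69), and unmatched arrays were not compared. Both factors are additive terms, and the model has no term for each pair. Exact permutation tests used scipy 1.17.1 and shuffled arrays freely between the 2 groups, without holding the matching by the other factors. The fit was tested on simulated data. The 9 genes, the lists and the naming rule (all 9 genes, and up to 4 per list by smallest p for passage and genotype) were chosen with earlier results of these data known. Alternatives were quantile normalisation, a trend, robust variances, array weights, single clusters, all two-way interactions, no replicate block, and leaving out each array. The trend was run although centred values give it no mean level to follow. A planned motif search in proteins was not run.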

Additional observations from a re-analysis of the deposited data

Results flagged for a closer look

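Of 54 groups of 4 arrays examined, 7 had an array far from the other 3. The arrays of a group were not replicates, because each group shared a genotype, a passage class or a background and differed in the rest. The groups also reused the same arrays across genes with like profiles. No chance rate can therefore be set against this count, and it does not show more outliers than chance would give. Late C57B6 Smurf2-/- stood apart among the C57B6 arrays in Postn (-4.29), Ccn2 (-1.93) and Sparc (-0.96). Sparc also stood apart in late mixed BL Smurf2-/- among the mixed BL arrays (-0.43) and in late C57B6 wild-type among the wild-type arrays (0.19). Tgfbi was low in early mixed BL Smurf2-/- among the Smurf2-/- arrays (-1.55), and Pmepa1 high in early mixed BL wild-type among the wild-type arrays (1.09).

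Thbs2 was lower in Smurf2-/- than in wild-type cells in both C57B6 pairs and higher in both mixed BL pairs. The interaction of genotype with background was 3.90 ± 1.23 (SE), with a limma adjusted p of 0.939, which did not pass.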

How the results depend on the processing

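None of the 9 genes passed the limma threshold under any setting run; the smallest adjusted p was 0.0734, for the passage difference of Ccn2 without the late C57B6 wild-type array. Counts of all genes called were less stable. Those with a trend rest on a setting that has no mean level to follow in centred values. For background, 14 genes became 1 with quantile normalisation, 28 with a trend, 5 with robust variances, 902 with array weights, 66 over single clusters and 1 with all two-way interactions. For genotype, 5 became 0 with quantile normalisation, 3 with a trend, 1 with robust variances, 3 with array weights, 3 over single clusters and 0 with all two-way interactions. For passage, 3 became 25 with a trend and 0 with robust variances, over single clusters or with all two-way interactions. For genotype at early passage, 1 became 0 with quantile normalisation, a trend or all two-way interactions and 2 with array weights. Leaving out 1 array gave 1 to 21 genes for background, 0 to 1 for genotype, 0 to 2 for passage and 0 for genotype at early passage. Without the replicate block, that is without passage class in the model, 4 genes were called for genotype and the Ccn1 difference was -0.59 as before; leaving the block out changed no call of the 9 genes, but that of Smurf2 was lost (limma adjusted p = 0.498). The cause of these changes was not tested.

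With array weights the genotype difference was 0.081 in Pmepa1 and -0.012 in Thbs2, and the background difference in Sparc was -0.028. With quantile normalisation the background difference was -0.003955 in Sparc and -0.032 in Thbs1. With 1 array left out, the background difference changed sign in Ccn1 (-0.45 to 0.0095), Ccn2 (-0.10 to 0.47), Pmepa1 (-0.20 to 0.50), Sparc (-0.14 to 0.23), Thbs1 (-0.20 to 0.30), Thbs2 (-1.06 to 0.76). With 1 array left out, the genotype by passage interaction changed sign in Tgfbi (-1.71 to 0.53), Thbs2 (-1.41 to 3.32). With 1 array left out, the genotype difference changed sign in Pmepa1 (-0.54 to 0.16), Tgfbi (-0.28 to 0.66), Thbs2 (-0.96 to 0.81), Tnc (-0.29 to 0.016). With 1 array left out, the genotype difference at late passage changed sign in Tgfbi (-1.24 to 0.99), Thbs2 (-1.85 to 2.88). With 1 array left out, the passage difference changed sign in Postn (-1.35 to 0.29). With 1 array left out, the passage difference in Smurf2-/- cells changed sign in Postn (-3.74 to 0.017), Tgfbi (-0.18 to 1.85). The exact permutation test gave p = 0.0286 for Thbs2 and Ccn2 by passage and for Postn by background. The late comparison of genotypes is 2 arrays against 2, and there 5 of the 9 genes had an unadjusted limma p under 0.05 and none passed adjustment over 17501 genes.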
